A study of Bos taurus with 129 samples.

Results

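Whole blood RNA from the 11 steers fed the inorganic (INR) supplement was compared between 7 animals diagnosed with or treated for bovine respiratory disease (BRD; disease label Yes) and 4 animals that stayed free of it (label No; called healthy here). These steers were 11 of the 26 animals of the series and gave 55 of its libraries, 1 each at day 0 (enrollment) and at days 13, 28, 45 and 60, while AAC steers gave 39 libraries and COMBO steers 35. Members were chosen by supplement label alone, and each animal entered the comparison once, as the average of its log2 CPM (counts scaled to library size) over days 13, 28, 45 and 60. Day 0 was kept apart. The INR feed carried Cu, Co, Mn and Zn as sulfates, whereas the other supplement groups, AAC and COMBO, received amino acid-complexed sources, with an oral mineral drench added in COMBO. All animals of both disease groups were commercial crossbred beef steers bought with no known health history and hauled a long distance. All received a vaccine against respiratory viruses and doramectin at enrollment and a second vaccination between the day 13 and day 28 samplings, and all were moved between pens during the study. Ages, the date of each BRD diagnosis, its severity and the drugs given were not given in the sources used here, so a library of day 13, for example, cannot be placed before or after illness in any BRD animal.

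At enrollment the healthy steers stood in pen 4 (animals 7, 30 and 50) and pen 3 (animal 10), and the BRD steers stood in pen 7 (animals 17, 27, 29 and 39), pen 3 (animals 23 and 43) and pen 4 (animal 40). Pen 7 held BRD animals only, so that pen and disease cannot be told apart in it. Values from pens 3 and 4 alone are given for some results. Disease states were split unevenly between these pens and that fit had no term for pen, so it does not remove pen differences. The libraries held 36848682 to 61692136 counts in BRD and from 31613545 to 59809837 in healthy steers, with medians of 44063702 and 44688381.5. Markers of each main blood lineage were present in all 55 libraries. The T cell gene CD3E ranged from 7.18 to 9.42 log2 CPM, the B cell gene MS4A1 from 8.17 to 10.6, the monocyte gene CD14 from 4.22 to 7.56 and the neutrophil gene S100A12 from 7.54 to 12.1, while the red cell gene HBB spread most, from 4.2 to 13.8. The day 13 library of healthy animal 50 stood apart by connective tissue transcripts, and BRD animal 40 stood apart by heat shock transcripts, as given below. The last sample of the same BRD animal had the lowest RNA integrity of the series. Results that rest on these animals are given with and without them where such a fit was made.

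BRD is a disease complex of the airways in which viral infection, transport and commingling open the way for bacteria of the upper respiratory tract. Whole blood reports on it through circulating leukocytes: neutrophils and monocytes carry the early inflammatory genes, lymphocytes carry the antigen-driven response, and dividing leukocytes and immature cells released from the marrow carry transcripts of DNA replication and mitosis. In bulk blood, fewer cells of a type and less RNA per cell cannot be told apart.

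After arrival, transcripts of DNA replication and cell division were higher in BRD than in healthy INR steers, and a smaller set of genes that includes lipoprotein lipase was lower, but none of these differences passed the threshold of the main test. Of 18056 genes, limma called 0 (0%) at a false discovery rate (FDR, the Benjamini-Hochberg adjusted p) of 0.10, with a smallest adjusted p of 0.808. At an unadjusted p under 0.05, 562 genes (3.11%) were higher in BRD and 437 (2.42%) were lower. The quasi-likelihood test of edgeR on counts summed per animal also called 0 genes, with 1046 at an unadjusted p under 0.05 and a smallest adjusted p of 0.830. DESeq2 on the same summed counts called 62 of the 15930 genes to which it gave an adjusted p (0.389%), 36 higher and 26 lower, and a model of single libraries with animal as a block called 71, 28 higher and 43 lower, of which 13 were among the DESeq2 calls. In 110 genes (0.609%) all 7 BRD averages lay above all 4 healthy averages, and in 61 genes (0.338%) they all lay below. The median difference over all genes was -0.01 and the median standard error was 0.17 on the log2 scale. Animals rather than libraries were the unit in limma and in the tests of summed counts. Their p-values set the group difference against the spread between these animals. The fit with animal as a block used single libraries, and in 11 of its 71 calls the animal averages of the groups did not overlap.

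Among the 30 genes of a cell cycle list, called proliferation genes here, 29 had a higher post-arrival average in BRD steers, with a median difference of 0.34 log2 units. An unadjusted p under 0.05 was reached by 21 of the 30, all of them higher in BRD, where the background was 3.11% of all genes. At the FDR threshold limma called 0 of the 30, as did the fit with animal as a block. DESeq2 called 3 (PCNA, MCM4 and MCM7), beside 0.389% of all genes to which it gave an adjusted p. The mean level of the list was 5.41 ± 0.19 (SD, n = 7) log2 CPM in BRD and 5.1 ± 0.08 (SD, n = 4) in healthy steers. The healthy animals had list levels of 5.09 (animal 7), 5.18 (animal 10), 4.98 (animal 30) and 5.13 (animal 50), and the BRD animals ran from 5.15 through a median of 5.33 to 5.68. BRD animal 27, at 5.15, was the one BRD steer below a healthy steer. With pens 3 and 4 alone, which leaves 3 BRD animals, all 30 genes were higher, 18 had an unadjusted p under 0.05 (background 3.94% higher and 3.42% lower) and the median difference was 0.42.

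All 6 licensing helicase genes were higher on average in BRD. The MCM2 to MCM7 proteins form the helicase that is loaded on origins before S phase, and MCM4 had the smallest p of the list. Its healthy averages were 5.74, 5.71, 5.75 and 5.84 log2 CPM in animals 7, 10, 30 and 50, and its BRD averages ran from 5.90 through 6.10 to 6.38, a difference of 0.37 (SE 0.08). The groups did not overlap. MCM3 was at 6.14, 6.13, 6.11 and 6.17 in healthy animals and from 6.19 to 6.69 in BRD, and MCM5 was at 5.88, 5.82, 5.73 and 5.85 against 5.90 to 6.40, so that both also separated the groups, by a narrow gap. MCM7 had the largest difference of the helicase, 0.51 (SE 0.13), but healthy animal 7, at 6.00, lay inside the BRD range of 5.85 to 6.26. MCM6 differed by 0.25 (SE 0.08). MCM2 varied widely in both groups, from 4.73 to 5.91 in BRD and from 4.57 to 5.38 in healthy steers, and its difference of 0.33 had a standard error of 0.25. Over the whole list the BRD averages lay above every healthy average in 6 of 30 genes (20%), namely MCM3, MCM4, MCM5, PCNA, TK1 and BIRC5, beside 0.609% of all genes.

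GMNN, which encodes geminin, the inhibitor that keeps origins from being licensed again, was not on the list and had the second smallest p of all higher genes with a symbol. Healthy animals were at 3.03, 3.12, 3.45 and 3.21 log2 CPM and BRD animals from 3.65 through 3.91 to 4.12. The groups did not overlap and the ratio of the group averages was 1.57 (log2 difference 0.65, SE 0.12), with a limma adjusted p of 0.808, a DESeq2 adjusted p of 0.0016 and an adjusted p of 0.0140 with animal as a block. GMNN was higher in BRD on each sampling day, by 0.42 at day 0, 0.77 at day 13, 0.74 at day 28, 0.45 at day 45 and 0.65 at day 60 (edgeR log2 fold change).

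Genes of the DNA synthesis machinery followed with small spreads among healthy animals. PCNA, the sliding clamp of the replicative polymerases, was at 6.12, 5.98, 5.99 and 6.10 in healthy animals and from 6.17 through 6.36 to 6.59 in BRD, a difference of 0.34 (SE 0.08) without overlap. TK1, the S phase thymidine kinase, was at 5.26, 5.19, 5.2 and 5.21 in healthy animals, within 0.03 SD, against 5.36 to 5.86 in BRD. RRM2, the regulated subunit of ribonucleotide reductase, differed by 0.38 (SE 0.14) and TYMS, thymidylate synthase, by 0.19 (SE 0.08), and in both the ranges overlapped. ASF1B, a histone chaperone that hands new histones to replicated DNA, was at 4.27, 4.25, 4.09 and 4.30 against 4.40 to 4.91 in BRD (difference 0.39, SE 0.10). RHNO1, a partner of the ATR checkpoint at stalled forks, differed by 0.34 (SE 0.08), but the lowest BRD animal (animal 27, 3.46) lay just under the highest healthy one (animal 7, 3.48).

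Most mitotic genes also had higher averages in BRD. NCAPG, a condensin subunit that compacts chromosomes, was at 4.57, 4.40, 4.43 and 4.44 log2 CPM in healthy animals and from 4.63 through 4.99 to 5.30 in BRD, a difference of 0.52 (SE 0.13) with no overlap. KNSTRN, a kinetochore and spindle protein, was at 3.41, 3.34, 3.36 and 3.36 in healthy animals against 3.56 to 3.86 in BRD (difference 0.33, SE 0.08), again with no overlap. The kinase AURKB of the chromosomal passenger complex differed by 0.47 (SE 0.13), and its partner BIRC5 by 0.41 (SE 0.12). The anaphase activator CDC20 differed by 0.46 (SE 0.14) and the mitotic cyclin CCNB1 by 0.45 (SE 0.14), and in both the lowest BRD animal reached into the healthy range. The 3 list members of highest level differed less: MKI67 by 0.30 (SE 0.16), HMGB2 by 0.18 (SE 0.07) and STMN1 by 0.26 (SE 0.14). PLK1 differed by 0.03 (SE 0.07), and NUSAP1, a spindle protein, was the one member with a lower average in BRD, at -0.19 (SE 0.23). The genes NCAPG, KNSTRN, ASF1B, RHNO1 and GMNN lie outside the list and were named because they were among the 10 genes of smallest p that were higher in BRD.

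**Figure D1:**
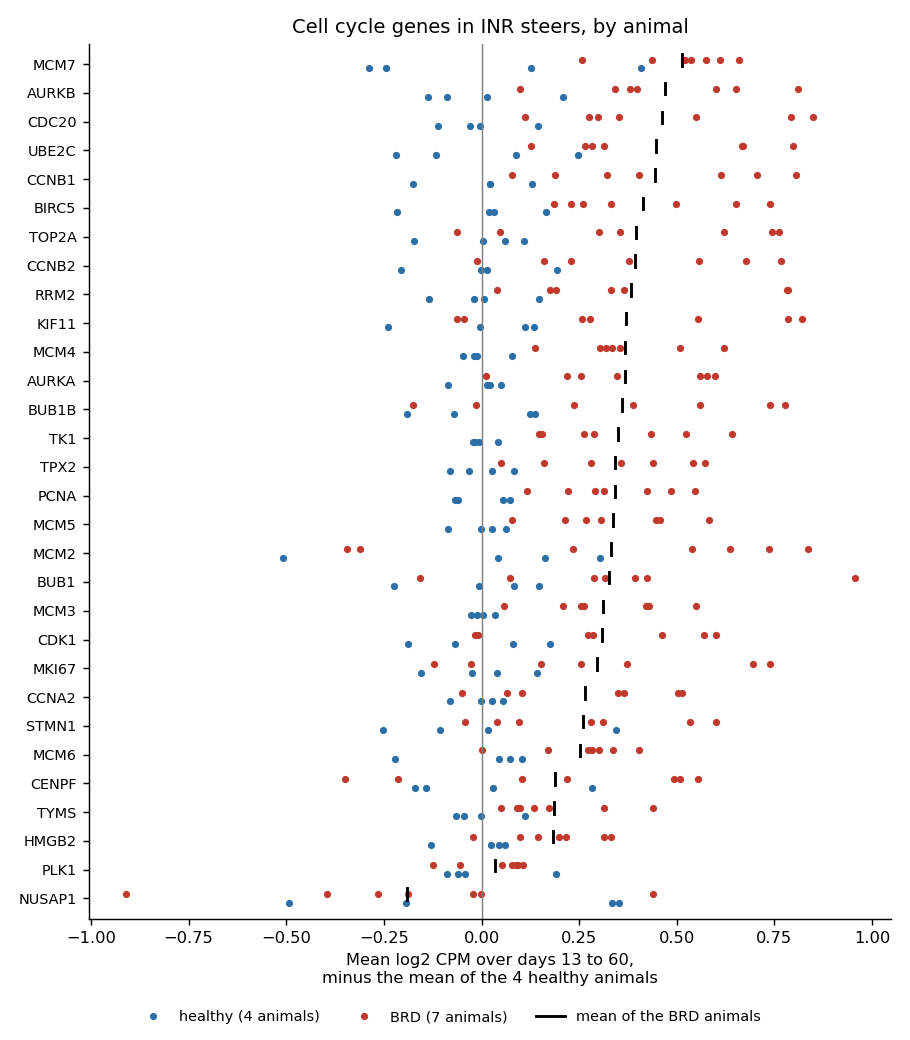
Post-arrival average log2 CPM of each of the 30 proliferation genes in each steer, minus the mean of the 4 healthy steers (blue points, healthy; red points, BRD; black bars, mean of the 7 BRD steers), ordered by the BRD mean. The BRD mean lies right of 0 in 29 genes, from PLK1 at 0.03 to MCM7 at 0.51, and left of it in NUSAP1 at -0.19.

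By day, the median difference of the proliferation genes ran from 0.12 at day 0 to 0.50 at day 28, and differences between days were not tested. At day 0 the list level was 5.19 ± 0.49 (SD, n = 7) in BRD and 5.16 ± 0.30 (SD, n = 4) in healthy steers, 25 of 30 genes were higher by a median of 0.12, and 1 had an unadjusted p under 0.05 (background 3.23% higher). At day 13 the levels were 5.44 ± 0.31 and 5.11 ± 0.12, 28 genes were higher, 13 of them with an unadjusted p under 0.05 (background 4.41%), and 1 of the 2 lower genes also had one. At day 28 they were 5.51 ± 0.18 and 5.01 ± 0.09, 29 genes were higher by a median of 0.50, 21 had an unadjusted p under 0.05 (background 2.77%), and all 7 BRD animals lay above the highest healthy animal. At day 45 the levels were 5.38 ± 0.19 and 5.19 ± 0.27, and at day 60 they were 5.32 ± 0.35 and 5.08 ± 0.35. On those days 28 and 30 genes were higher, none with an unadjusted p under 0.05 where the background was 1.72% at day 45 and 2.7% at day 60, and 4 and 3 of the 7 BRD animals lay above the highest healthy one. Without day 28, 11 rather than 21 of the genes had an unadjusted p under 0.05 in the average of the other days.

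**Figure D2:**
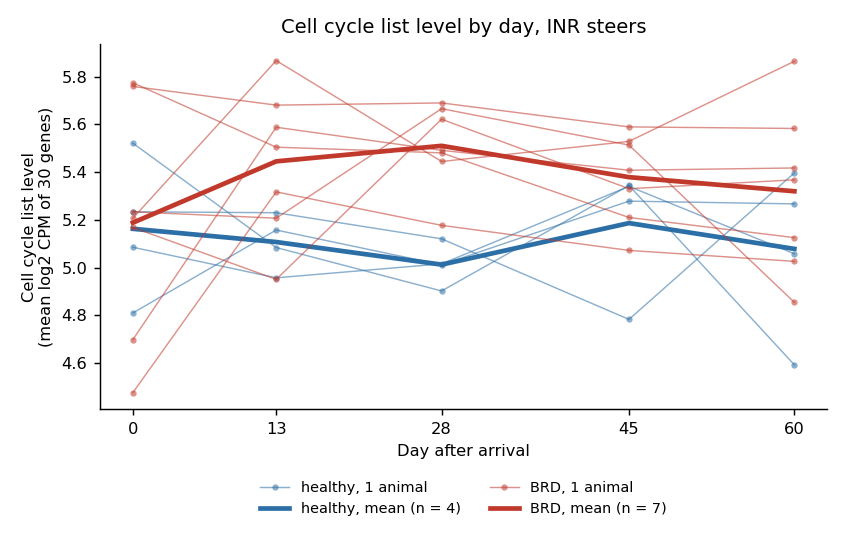
Mean log2 CPM of the 30 proliferation genes in each library, by sampling day, with 1 thin line per animal and thick lines for the group means (red, BRD; blue, healthy). At day 28 all 7 BRD animals lie above the highest healthy animal; at day 0 the groups overlap, with means of 5.19 and 5.16.

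Folding and secretory genes were also mostly higher in BRD, with 1 animal far above the rest. Of 20 heat shock and chaperone genes, 19 had a higher post-arrival average in BRD by a median of 0.19, and 6 had an unadjusted p under 0.05 (background 3.11%). The difference was already present at day 0, where 18 of 20 were higher by a median of 0.22. The mean list levels on that day were 6.54 in BRD and 6.30 in healthy steers. The medians at days 13, 28 and 45 were 0.38, 0.20 and 0.42. By day 60, 13 of 20 were higher by a median of 0.04, with levels of 6.73 in BRD and 6.76 in healthy steers. HSPA5, the main chaperone of the endoplasmic reticulum, was at 8.16, 7.93, 8.06 and 7.99 log2 CPM in healthy animals and from 8.13 through 8.27 to 8.37 in BRD, a difference of 0.22 (SE 0.06) with a small overlap. CALR, a calcium-binding chaperone of the same compartment, was at 8.71, 8.63, 8.64 and 8.56 against 8.78 to 9.02, without overlap (difference 0.22, SE 0.06, DESeq2 adjusted p 0.033). The cytosolic chaperones of highest level differed by 0.33 (SE 0.15) in HSP90AB1, 0.18 (SE 0.16) in HSP90AA1 and 0.11 (SE 0.26) in HSPA8. Animal 40 had a chaperone list level of 7.29 against 6.63 in the next BRD animal and 6.34 to 6.51 in healthy animals, and without it 16 of 20 genes were higher and 5 had an unadjusted p under 0.05. Without healthy animal 7, 30 or 50 in turn, 1 gene had an unadjusted p under 0.05, without BRD animal 29 or 43 it was 2 genes, without BRD animal 39 or without day 45 it was 3, and without day 13 it was 0. The number of all genes at such a p, in either direction, also varied between settings, from 999 in the main fit to 453 without day 13 and 1712 without day 45.

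The plasma cell list, made of genes that antibody-secreting cells express strongly, had 11 of 13 genes higher by a median of 0.22. At day 0 it was 10 of 13, by a median of 0.30, and at day 60 it was 3 of 13, with a median of -0.10. Without the day 13 library of animal 50, 12 of 13 were higher by a median of 0.19, and 0 had an unadjusted p under 0.05. SSR4, part of the translocon of the secretory pathway, differed by 0.23 (SE 0.10, unadjusted p 0.037), HSP90B1, an endoplasmic reticulum chaperone, by 0.24 (SE 0.11) and JCHAIN, which joins polymeric IgM and IgA, by 0.36 (SE 0.23). JCHAIN ran from 7.89 to 9.32 in BRD and from 8.15 to 8.51 in healthy steers, so that BRD animals lay on both sides of the healthy range. B cell genes differed little, with 12 of 17 higher by a median of 0.04.

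The remaining genes among the 10 of smallest p in the higher direction were PHKG2 and CMSS1. PHKG2, the catalytic subunit of the phosphorylase kinase that starts glycogen breakdown, was at 1.74, 1.21, 1.5 and 1.36 in healthy animals and from 1.96 through 2.43 to 2.64 in BRD, a difference of 0.91 (SE 0.16). Its single days did not all share that direction, with -0.51 at day 0, 1.45 at day 13, -0.18 at day 28, 1.33 at day 45 and 1.44 at day 60, and its DESeq2 adjusted p was 0.378. CMSS1 was at 1.77, 1.75, 1.80 and 1.55 against 1.88 to 2.42 (difference 0.48, SE 0.11) and was higher in BRD on all 5 days. In 9 of the 10 genes the groups did not overlap, beside 0.609% of all genes. Of the 10, 9 were higher on all 4 days after arrival and 8 were already higher at day 0. DESeq2 called 9 of them, all but PHKG2, beside 0.389% of genes in both directions. The 10 were picked by p in this same comparison, so the post-arrival counts and DESeq2 calls follow in part from that choice and are not separate support.

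Lower in BRD were genes of varied function. LPL, the lipase that releases fatty acids from circulating triglycerides, was at 3.97, 3.66, 4.08 and 3.79 log2 CPM in healthy animals and from 2.44 through 2.88 to 3.51 in BRD. Every BRD animal lay below every healthy animal, and the BRD average was 0.51 of the healthy one (log2 difference -0.96, SE 0.18, limma adjusted p 0.808, DESeq2 adjusted p 0.014). LPL was already lower at day 0, by -0.92, and on every later day, by -0.70 to -1.19 (edgeR log2 fold change). CD109, a membrane-anchored protein that binds TGF-beta, was low in all animals, at 0.07, 1.02, 0.79 and 0.72 in healthy steers and from -1.06 to -0.02 in BRD (difference -1.17, SE 0.23), and it too was lower at day 0, by -1.34. At day 13 its edgeR log2 fold change was -1.96 with the library of healthy animal 50, where it was called, and -1.21 without it, where it was not.

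EOGT, which adds GlcNAc to the EGF repeats of secreted and membrane proteins, was at 5.42, 5.84, 5.72 and 5.30 in healthy animals against 4.78 to 5.24 in BRD (difference -0.55, SE 0.12), and at day 0 its difference was 0.21. DDX39B, an RNA helicase of splicing and export, differed by -0.43 (SE 0.09), and XPNPEP2, a membrane aminopeptidase, by -0.66 (SE 0.16). WDR53 was within 0.03 SD among healthy animals and differed by -0.19 (SE 0.05), AVL9 differed by -0.39 (SE 0.10), and both separated the groups. RAB3D, a GTPase of secretory vesicles, differed by -1.21 (SE 0.30) and HSF4, a heat shock transcription factor, by -2.01 (SE 0.48), both at low levels. IGHM, the IgM heavy chain, had the largest difference, -2.86 (SE 0.69), with healthy animals at 2.20, 3.21, 5.82 and 3.42 and BRD animals from -0.51 to 2.18. Its edgeR difference was 2.20 at day 0, in the opposite direction, and since immunoglobulin heavy chain genes share near-identical sequence, the counts of this entry are uncertain. In 8 of the 10 lower genes the groups did not overlap, all but XPNPEP2 and RAB3D, beside 0.338% of all genes. Of the 10, 9 were lower on all 4 days after arrival and 5 were lower at day 0. DESeq2 called 7 of the 10, beside 0.389% of genes in both directions. As with the higher genes, the choice by p makes the post-arrival counts and DESeq2 calls no separate support.

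Monocyte, interleukin-1, lipid mediator and neutrophil granule lists had mostly lower post-arrival averages in BRD, and few of their members reached an unadjusted p of 0.05. Of 16 monocyte genes, 15 were lower by a median of -0.22 and 3 had an unadjusted p under 0.05 in that direction (background 2.42%). That count was 0 without healthy animal 7 (11 of 16 lower), without healthy animal 50 or without day 13, and 1 without BRD animal 17, 23, 29 or 43, without day 60 and with edgeR or DESeq2. The higher gene was MARCO, a scavenger receptor of macrophages, which differed by 1.74 (SE 0.88) from a mean of -4.02 log2 CPM in healthy animals and was called by DESeq2 (adjusted p 0.0448). CD68, a lysosomal glycoprotein of macrophages, differed by -0.56 (SE 0.23), and the 3 genes of highest level, LYZ, SIRPA and FCN1, differed by -0.25 (SE 0.31), -0.10 (SE 0.16) and -0.44 (SE 0.42). CD163, the scavenger receptor for haptoglobin-bound hemoglobin, was at 6.23, 5.77, 5.95 and 5.96 in healthy animals and from 4.58 up to 6.2 in BRD, with a median of 5.30 (difference -0.58, SE 0.26), with an overlap.

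Of 15 genes of interleukin-1 and the inflammasome, 13 were lower by a median of -0.29. IL1R1, the signalling receptor of interleukin-1, differed by -0.69 (SE 0.29, unadjusted p 0.036), and the cytokine IL1B by -0.40 (SE 0.23), its antagonist IL1RN by -0.21 (SE 0.21) and CASP4 by 0.01 (SE 0.09). The list level ran from 4.60 to 4.79 in healthy steers and from 3.94 to 4.85 in BRD. Of 14 enzymes of lipid mediators, 11 were lower by a median of -0.14, among them PTGS2, the inducible prostaglandin synthase, by -0.51 (SE 0.20). Neutrophil granule genes were lower in 14 of 19, by a median of -0.25, none with an unadjusted p under 0.05. With pens 3 and 4 alone 15 of 19 were lower, by a median of -0.49, and 3 had such a p (background 3.42%).

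Of 15 eosinophil and basophil genes, 13 were lower by a median of -0.43, and none had an unadjusted p under 0.05. The 15-lipoxygenase ALOX15 was at 5.2, 5.03, 7.52 and 6.36 in healthy animals and from 3.79 through 5.05 to 6.12 in BRD, a difference of -0.92 (SE 0.53). SMPD3, a sphingomyelinase, differed by -0.91 (SE 0.45), SIGLEC8, a lectin of eosinophils, by -0.21 (SE 0.15) and CCR3, the eotaxin receptor, by -0.06 (SE 0.30). Healthy animal 30 was the highest of all 11 in both ALOX15 and SMPD3.

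Antiviral, lymphoid, trace mineral and metabolic lists gave medians close to that of all genes. Of 31 type I interferon-stimulated genes, 22 were higher in BRD by a median of 0.06, and OAS1Y, an oligoadenylate synthetase with near-identical copies, was the one with an unadjusted p under 0.05, at 4.30, 2.90, 4.73 and 2.93 in healthy animals and from 3.28 through 6.15 to 6.45 in BRD (difference 2.00, SE 0.60). Among the interferon genes of high level, OAS2 differed by -0.01 (SE 0.52) and MX1 by 0.25 (SE 0.39). With pens 3 and 4 alone, 12 of the 31 type I interferon genes were higher, with a median of -0.03. The median was 0.04 over 20 alpha-beta T cell genes, 0.02 over 10 genes of WC1 gamma-delta T cells, 0.13 over 20 NK and cytotoxic genes, -0.06 over 13 MHC class II genes, -0.07 over 20 platelet genes and 0.07 over 29 erythroid genes. With pens 3 and 4 alone these medians were, in the same order, -0.07, -0.07, 0.08, 0.004, 0.16 and -0.13. Of 14 interferon-gamma genes 11 were higher by a median of 0.11, of 23 neutrophil alarmin and chemotaxis genes 7 were higher, with a median of -0.09, and of 18 genes of TNF and NF-kB feedback 8 were higher, with a median of -0.06. Of 7 acute phase genes 4 were higher, with a median of 0.00, of 15 regulatory T cell and checkpoint genes 9, with a median of 0.01, and of 17 glucocorticoid-induced genes 9, with a median of 0.04. HP, the acute phase protein haptoglobin, differed by 0.09 (SE 0.51).

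Of 21 genes that handle zinc and manganese, 12 were higher by a median of 0.02. The metallothionein MT2A, which binds zinc and copper, was at 1.16, 1.08, 0.30 and 0.91 in healthy animals and from 1.07 through 1.44 to 2.13 in BRD (difference 0.63, SE 0.21, unadjusted p 0.014), while the zinc exporter SLC30A1 differed by -0.02 (SE 0.11). Of 25 genes of copper and cobalamin, 15 were higher by a median of 0.04, and CD320, the receptor that takes up cobalamin, differed by 0.27 (SE 0.10, unadjusted p 0.025). Of 25 antioxidant enzymes, 17 were higher by a median of 0.03. PRDX1, a peroxidase of high level, was at 7.05, 7.09, 6.89 and 6.96 against 7.00 to 7.30 (difference 0.20, SE 0.07), and SOD2, the manganese superoxide dismutase, differed by 0.12 (SE 0.19). Cholesterol synthesis and fatty acid oxidation had medians of 0.05 and 0.08, with the electron carrier ETFA at 0.20 (SE 0.07) and the sterol dehydrogenase NSDHL at 0.17 (SE 0.07).

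**Figure D3:**
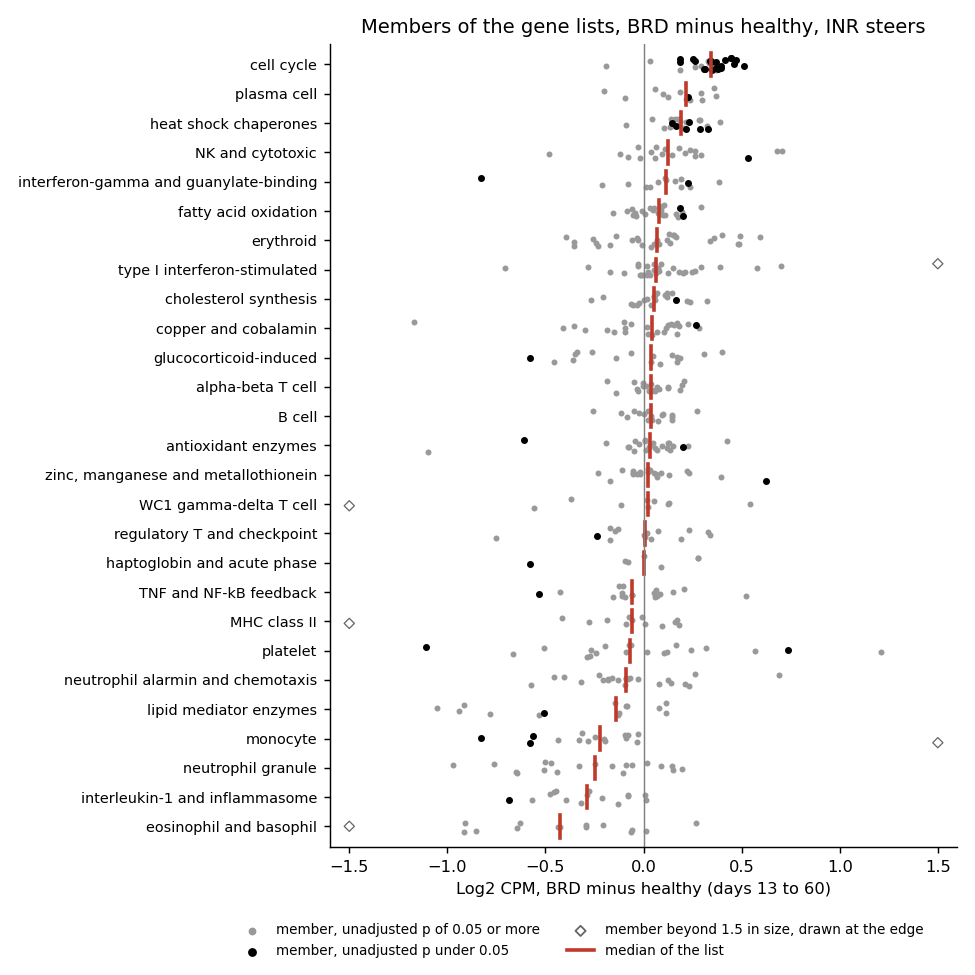
Post-arrival difference in log2 CPM, BRD minus healthy INR steers, for each tested member of the 27 gene lists (black points, unadjusted p under 0.05; grey points, the others; diamonds, members beyond 1.5 drawn at the edge), with the median of each list as a red bar. The cell cycle median (0.34) lies farthest right and that of the eosinophil and basophil list (-0.43) farthest left.

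At enrollment, several lists had higher medians in BRD than the proliferation genes, among them the type I interferon, platelet and neutrophil alarmin lists. At day 0 the median difference of the type I interferon list was 0.88, with 29 of 31 genes higher in BRD steers and 7 with an unadjusted p under 0.05. Its list level was 7.02 ± 1.0 (SD, n = 7) in BRD and 6.11 ± 1.02 (SD, n = 4) in healthy steers, where animal 10 was at 7.64 and animals 7, 30 and 50 were at 5.67, 5.58 and 5.55. BRD animals 23 and 43, from pen 3 like animal 10, were at 8.12 and 8.40. BRD animal 40, from pen 4 like the other healthy animals, was at 5.55, and the BRD animals of pen 7 ran from 6.43 to 7.34. Levels differed more between pens 3 and 4 than between disease states within them, and the part of pen was not tested. Neutrophil alarmin and chemotaxis genes were higher in 18 of 23 by a median of 0.47 (5 with an unadjusted p under 0.05) and platelet genes in 18 of 20 by 0.53, whereas eosinophil and basophil genes were lower in 13 of 15 by a median of -1.0 (5 with an unadjusted p under 0.05, background 2.32%). Monocyte genes were higher in 12 of 16 by 0.31 (3 with an unadjusted p under 0.05) and genes of interleukin-1 and the inflammasome in 12 of 15 by 0.19 (2 with an unadjusted p under 0.05), the direction opposite to that of their post-arrival averages. Acute phase genes were higher in 7 of 7 by 0.32 (0 with an unadjusted p under 0.05) and interferon-gamma genes in 10 of 14 by 0.31 (1 with such a p). Cholesterol synthesis genes were lower in 19 of 22 by -0.22. edgeR called 0 of 18056 genes (0%) at day 0, with 1003 at an unadjusted p under 0.05, and DESeq2 called 60.

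The 5 genes of smallest p at day 0 with a symbol were higher in BRD. ALPL, the alkaline phosphatase of neutrophils, was at 4.2, 3.05, 1.63 and 2.43 log2 CPM in healthy animals and from 3.7 through 5.14 to 7.98 in BRD (edgeR log2 fold change 3.18, adjusted p 0.464). LRG1, a glycoprotein of neutrophil granules, was at -2.63, -2.89, -1.68 and -3.04 against -2.54 to 2.78, and SHROOM4, a regulator of the actin cytoskeleton, was at 1.16, -0.93, -1.03 and -1.22 against 0.08 to 4.27. BRD animal 43 was the highest of all 11 in these genes and in RAB3IP, and the ranges of ALPL, LRG1 and SHROOM4 overlapped. BCL2, an inhibitor of apoptosis, was at 1.42, 1.63, 1.72 and 1.96 against 2.09 to 3.88, and RAB3IP, an exchange factor for Rab proteins, was at 4.26, 4.2, 4.09 and 4.03 against 4.34 to 7.22, both without overlap. After arrival the same genes differed by 0.69 (SE 0.38) in ALPL, 0.23 (SE 0.31) in LRG1, 0.08 (SE 0.31) in SHROOM4, 0.06 (SE 0.17) in BCL2 and 0.11 (SE 0.13) in RAB3IP.

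On single days after arrival, edgeR calls appeared at day 13, and their number depended on 1 library. edgeR called 174 genes at day 13, 8 higher in BRD (0.0443%) and 166 lower (0.919%). Of the 166 lower genes, 152 had their highest day 13 value in healthy animal 50. That library held transcripts of fibroblasts and their matrix at levels far above the others. COL1A1, the main chain of type I collagen, was at 2534 CPM there, at 478 CPM in the next highest library (healthy animal 30, day 28) and at a median of 1.88 CPM over the other 54. COL3A1 was at 1817 CPM against 388 in the next, fibronectin (FN1) at 986 against 91.9 and decorin (DCN) at 124.3 against 24.8. These genes mark connective tissue rather than circulating leukocytes, and the day 13 comparison was also fitted without that library. Leaving it out also makes the healthy group of day 13 smaller and changes the estimate of spread. The number of calls lost therefore does not measure the part of these transcripts.

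Without that library edgeR called 2 genes at day 13 (0.0111%), SLC12A8, a solute carrier, at -3.13 and LOC112449353 at -1.98, with 705 genes at an unadjusted p under 0.05. The 8 genes called higher with the library included were GMNN, CMSS1, GRB7 (an adaptor of receptor tyrosine kinases), PPA1 (a pyrophosphatase) and 4 loci without a symbol, and none of them was called without it, with log2 fold changes of 0.74 rather than 0.77 in GMNN, 0.51 rather than 0.62 in CMSS1, 1.06 rather than 1.15 in GRB7 and 0.66 rather than 0.70 in PPA1. Without BRD animal 40 instead, 1260 genes were called (631 higher, 629 lower), and without both it was 1. With all animals 0.964% of genes were called at day 13, and without BRD animals 17, 39 and 43 in turn the shares were 0.537%, 0.604% and 0.637%. The proliferation genes were higher in 28 of 30 at day 13 under each of these settings for animals 40 and 50, with a median of 0.41 with all libraries and 0.48 without the day 13 library of animal 50. At days 28, 45 and 60 edgeR called 0 genes each (0%), with 839, 629 and 724 at an unadjusted p under 0.05, and DESeq2 called 6, 18 and 21. In the post-arrival average, leaving out that library gave 0 calls, 826 genes at an unadjusted p under 0.05 and 21 proliferation genes among them.

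**Figure D4:**
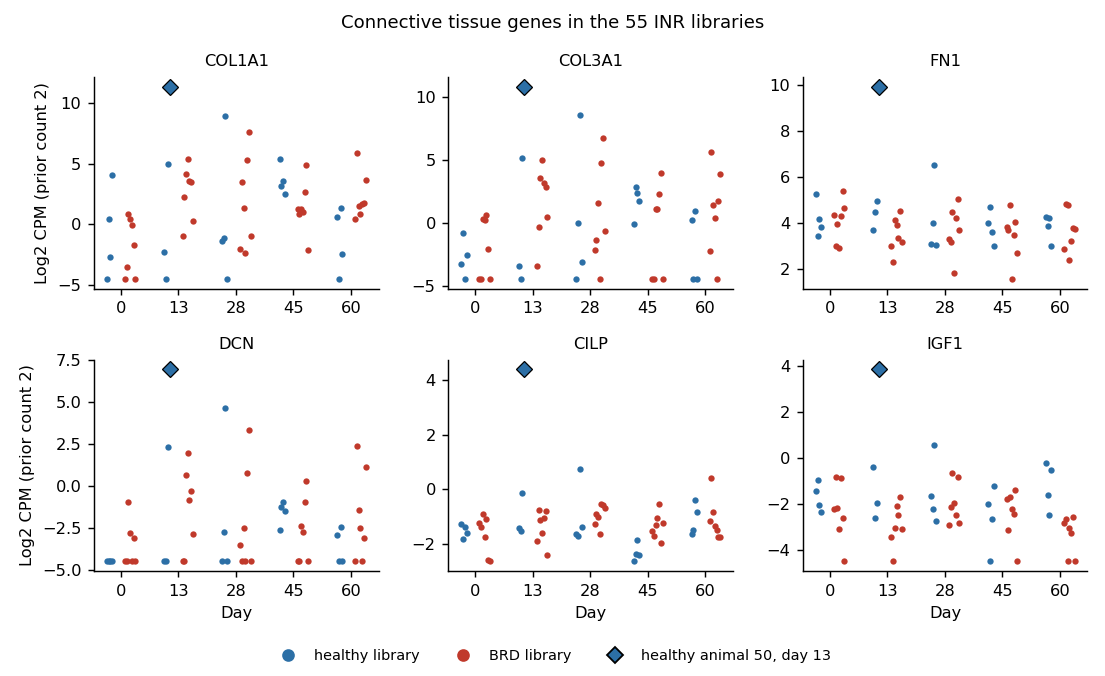
Log2 CPM (prior count 2) of 6 connective tissue genes in the 55 INR libraries by sampling day, with healthy libraries in blue, BRD libraries in red and the day 13 library of healthy animal 50 as a diamond. The diamond is the highest point in all 6 panels.

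The change of each animal from its own day 0 to its post-arrival average answered whether BRD and healthy steers moved differently after enrollment. limma called 1 of 18056 genes (0.00554%), with 935 at an unadjusted p under 0.05 that moved more upward in BRD (5.18%) and 799 more downward (4.43%). The called locus, LOC784769, had 57, 10, 46 and 30 counts at day 0 in healthy animals 7, 10, 30 and 50 and was listed at 0 in all 7 BRD animals, which gave a difference in change of 4.05 (SE 0.48, adjusted p 0.0769) that depends on the prior count. After arrival its counts were at 0 in many libraries of both groups, it was not called with animal as a block in edgeR (0 genes called, 1391 at an unadjusted p under 0.05), and it was lost when healthy animal 7, 10, 30 or 50 or BRD animal 17, 23, 29, 39 or 40 was left out. Type I interferon genes moved downward in BRD relative to healthy animals in 29 of 31, by a median of -0.84, with 5 at an unadjusted p under 0.05. Their day 0 levels differed by pen, as given above. Cholesterol synthesis genes moved upward in 21 of 22, by 0.24, with 6 at an unadjusted p under 0.05. Eosinophil and basophil genes moved upward in 12 of 15, by 0.48, with 4 at an unadjusted p under 0.05. Proliferation genes did so in 28 of 30, by 0.29, with 1 upward and 1 downward at an unadjusted p under 0.05. These list values share their day 0 libraries with the day 0 comparison and are not separate evidence.

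Of the 5 genes with a symbol and the smallest p in this change, MYH11, smooth muscle myosin, moved by 0.79, 0.50, 0.84 and 0.69 in healthy animals and by -0.31 to 0.17 in BRD animals (difference -0.72, SE 0.11, adjusted p 0.295). NTN1, the guidance protein netrin, moved by 0.58, 0.73, 0.74 and 0.90 in healthy animals against -0.86 to 0.33. RBFOX2, a splicing regulator, moved by 0.52, 0.90, 1.07 and 2.63 against -1.19 to -0.07. In all of these the healthy animals moved upward and the groups did not overlap. The RBFOX2 value of 2.63 is that of animal 50, whose average includes the day 13 library with connective tissue transcripts. At day 13 the edgeR log2 fold change of RBFOX2 was -2.45 with that library and -0.89 without it. The change from day 0 was not fitted without that library. LDHAL6B differed by -1.24 (SE 0.25) from day 0 levels under 1 CPM, and VWA3A, listed at 0 counts in the 4 healthy animals at day 0 and at 0 to 25 in BRD animals, is given without a fold change.

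Across the series, the INR difference in proliferation genes came with low levels in the healthy INR steers. With all libraries of the series scaled together, the list level was 5.09 ± 0.09 (SD, n = 4) log2 CPM in healthy INR steers and 5.40 ± 0.19 (SD, n = 7) in BRD INR steers. It was 5.46 ± 0.19 (SD, n = 4) in healthy and 5.42 ± 0.29 (SD, n = 4) in BRD AAC steers, and 5.36 ± 0.16 (SD, n = 4) and 5.32 ± 0.16 (SD, n = 3) in COMBO steers. Ordered from the lowest of the 26 animals, the healthy INR steers took places 1, 2, 3 and 7. The BRD INR steers ran from 5.14 to 5.66 and overlapped with every AAC and COMBO group. The BRD minus healthy difference had a median over the list of 0.34 in INR, -0.07 in AAC and -0.03 in COMBO, with 29, 5 and 13 of 30 genes higher.

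The test of that difference between supplements, INR against the mean of the others, called 0 of 18937 genes (0%) by limma, with 625 (3.3%) higher and 536 (2.83%) lower in INR at an unadjusted p under 0.05 and a smallest adjusted p of 0.759. Of the proliferation genes 29 of 30 had a larger BRD difference in INR, 16 with an unadjusted p under 0.05, by a median of 0.37. The 5 genes of smallest p in the contrast were PGAM5, a mitochondrial phosphatase, at 0.40 (SE 0.09), CMSS1 at 0.58 (SE 0.14), USP53 at -1.17 (SE 0.29), BOLA3, a factor of mitochondrial iron-sulfur cluster assembly, at 0.91 (SE 0.23) and SURF2 at 0.67 (SE 0.17), each with an adjusted p of 0.759. CMSS1 differed between BRD and healthy steers by 0.47 in INR, -0.42 in AAC and 0.21 in COMBO in this fit. No pen held steers of more than 1 supplement at enrollment, so the supplement and the pen cannot be told apart in these contrasts. In COMBO the healthy and the BRD steers stood in different pens at enrollment. Disease and pen therefore cannot be told apart in the COMBO values or in their share of the contrast.

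**Figure D5:**
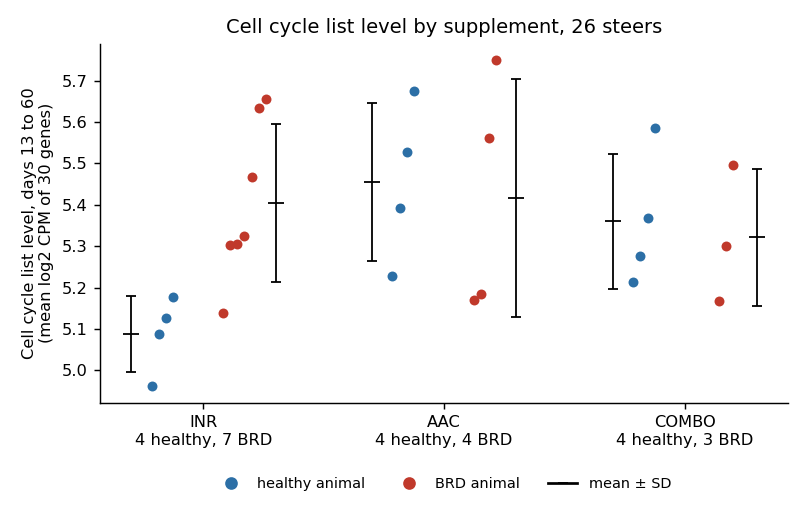
Post-arrival mean log2 CPM of the 30 proliferation genes in each of the 26 steers, by supplement (blue points, healthy; red points, BRD), with the mean and SD of each group as black bars. The 4 healthy INR steers, at 4.96 to 5.18, have the lowest group mean (5.09), and the other 5 group means lie between 5.32 and 5.46.

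Principal components of the 11 post-arrival averages did not separate the groups beyond the spread between animals. PC1 held 23.6% of the variance (exact permutation p 0.673), PC2 20.8% (exact permutation p 0.0939) and PC3 11.30% (exact permutation p 0.0758), and over the 330 splits of 7 and 4 animals the smallest p possible was 0.00303. Adjusted over the 3 components these were 0.673, 0.141 and 0.141. On PC2 BRD animal 40 stood apart, at 167 against 36.4 in the next animal, and healthy animals lay from -67.5 to -10.9.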

How the data were processed

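Total RNA from Tempus blood tubes was made into stranded mRNA libraries and sequenced by the authors as read pairs. Per the labels, reads were trimmed with Trimmomatic 0.39, checked with FastQC 0.11.9, mapped with HISAT2 (2.1.1 in the submitters' processing notes) to the bovine assembly ARS-UCD1.3 and assembled with StringTie 2.2.0. The deposited table holds raw gene counts for 32395 genes. These counts were derived from coverage with a read length of 150, so they are not direct tallies of reads, and genes with near-identical copies may exchange reads.

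The 55 INR libraries were filtered with filterByExpr over disease and day, which kept 18056 genes, and scaled by TMM. Differences in each animal's mean log2 CPM (prior count 2) were tested with limma 3.58.1 (trend) as BRD minus healthy, with Benjamini-Hochberg adjustment and a threshold of 0.10. Summed counts were tested with edgeR 4.0.16 and DESeq2 1.42.0 in R 4.3.3, single days with edgeR (common dispersion, biological coefficient of variation 39.9%), and the supplement contrast with limma on all 26 animals (18937 genes). All tests were two-sided. The edgeR model of single days ignores that libraries share an animal, although deviations from group and day means correlated by a median of 0.374 within animals and -0.034 between animals. The labels give that each animal was sampled on 5 days, and the fit with animal as a block uses the correlation within animals. Libraries of the same animal also share its pen at enrollment, and the source of the correlation was not tested. Alternatives were other scalings, filters and dispersions, DESeq2, pens 3 and 4 alone, each day alone, and each animal or day left out. Leaving out the day 13 library of animal 50 and recounting lists under the alternatives were chosen after seeing the data. Methods were tested on simulated data. Figures were drawn with matplotlib 3.10.9.

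The comparison and the 27 gene lists (534 of 562 genes in the table) were chosen with earlier results of these data known, and lists share some genes. Named genes are the 10 of smallest p with a symbol in each direction, for each list described the 3 of highest level and the 1 of smallest p, and the 5 of smallest p with a symbol at day 0, in the change from day 0 and in the supplement contrast. A gene that this rule names is not reported here. Other members of the proliferation, monocyte, plasma cell and eosinophil lists, the connective tissue genes, the called loci and the lineage markers were named after their values were seen. No genome of the authors' assembly was used, so positions and sequences are not given.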

Additional observations from a re-analysis of the deposited data

Results flagged for a closer look

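Of 100 sets of animals examined for a single animal far from its group, 8 were marked by Dixon's ratio, and in 4 of the 8 the animal was BRD animal 40. Chance marks about 1 in 20 single sets, but these sets share animals and genes, so the count of 8 is not a test against that share. Animal 40 was the highest BRD animal in the heat shock chaperone list (ratio 0.746, 7.29 against 6.63 log2 CPM in the next), in CALR (0.575, 9.02 against 8.88) and on PC2 (0.692, 167 against 36.4), and the lowest in the type I interferon list (0.625, 5.59 against 6.28). BRD animal 43 was the lowest in the alpha-beta T cell list (0.628, 6.29 against 6.83). BRD animal 27 was the lowest in RHNO1 (0.569, 3.46 against 3.63) and in WDR53 (0.585, 5.73 against 5.83). Healthy animal 30 was the lowest healthy animal in the platelet list (0.947, 3.96 against 4.46), and the same animal gave the second highest library of most connective tissue genes.

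LOC784769 was marked because its difference between BRD and healthy steers itself differed between day 0 and the days after arrival (adjusted p 0.0769). It is a locus of few counts, listed at 0 in all 7 BRD libraries and detected in all 4 healthy libraries of day 0.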

How the results depend on the processing

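The post-arrival count of 0 called genes became 62 with DESeq2, 71 with animal as a block, 2 with pens 3 and 4 alone (PPBP, a platelet chemokine, at 1.31 and LOC104968484 at -2.51), 1 without the filter on low counts (LOC112444595), and 0 to 1 with each animal left out (1 without healthy animal 30, LOC100297192). None of the alternatives for this average turned the direction of any of the 20 genes of smallest p in it (single days are given separately). Those genes were picked by that p, so a kept direction is not separate support. The count of proliferation genes at an unadjusted p under 0.05 was 11 without day 28. On single days DESeq2 called 0.333%, 0.0333%, 0.0998% and 0.116% of genes at days 0, 28, 45 and 60. At day 13 the share of 0.964% was 0% with limma, 0.626% with a trended dispersion, 0.00554% with each day fitted alone, 0.0111% without the day 13 library of animal 50, 0.00554% without it and animal 40, and 0.0111% to 6.98% with each animal left out. Day 28 gave 0.00384% (1 gene) without the filter, and days 0, 28, 45 and 60 gave 0% to 0.00554% (at most 1 gene) with each animal left out. The change from day 0 gave 0 calls with animal as a block and 0 to 1 with each animal left out. The PC1 difference of 19 was -50.3 to 65.6 with each animal left out, with -0.50 without animal 7, -18.6 without animal 30 and -50.3 without animal 43. The PC2 difference of 58.6 was 30.6 to 70.1, with 65.26 without animal 40 (exact permutation p 0.0476). The PC3 difference of 49.2 was -27.0 to 59.168, with 58.04 without animal 39 (exact permutation p 0.0476) and -27.0 without animal 40. Components were refitted with each animal left out and matched to the main ones by number, with only the sign aligned. A component of the same number need not be the same axis, above all without animal 40, which stood apart on PC2. These differences and p-values are therefore not tests of the main components, and the cause of the shifts was not tested. The 4 healthy animals limit the precision of these counts, and depth was not varied.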
